A study of Mus musculus with 2 samples.

Results

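The transferrin receptor gene Tfrc, the hemojuvelin gene Hjv and the inhibitor of DNA binding gene Id3 were examined in mouse liver RNA after saline infusion or parenteral nutrition (PN, feeding through a vein). They were chosen by name, as the rows whose platform annotation gives exactly 1 symbol equal to one of these 3. All 3 genes were found, each with 1 probe set, among 1750 named genes and 5082 rows of the deposited table. The table covers 2 arrays, 1 per group, each of RNA pooled from 3 C57BL/6J mice. Both groups were aged 6 to 10 weeks, carried a jugular catheter placed on day 1 and received saline through it from day 2. From day 3 the saline group stayed on saline and kept its food, whereas the PN group was infused with PN and its food was taken away, and livers were taken on day 11. Both pools thus share the surgery, the catheter and the metabolic cage, while the infusion and the absence of food differed together and cannot be told apart. The labels used here give no sex and no composition of the PN solution, its iron content included.

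Iron reaches cells as iron-loaded transferrin, which the transferrin receptor carries inside, and the Tfrc mRNA is known to be stabilised by iron regulatory proteins when cellular iron is low. Hepatocytes sense body iron through bone morphogenetic proteins (BMPs), for which hemojuvelin is a membrane-bound co-receptor. The signal passes through SMAD proteins to hepcidin, the product of Hamp, which lowers the release of iron from gut and macrophages. Id3 is a known transcriptional target of the same BMP and SMAD signal and encodes a protein that binds and blocks basic helix-loop-helix transcription factors.

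Tfrc was higher in the PN pool, and Hjv and Id3 were lower. The RNA level of the hepcidin gene Hamp was lower together with that of Hjv, and that of its duplicate Hamp2 was higher. Since each group is 1 array of pooled RNA, there is no replicate error, no test was possible, and each difference describes these 2 pools only. Levels are log2 values from RMA (robust multi-array average, which corrects background, normalizes arrays and summarises probes), and a difference is the PN level minus the saline level. Levels of different probe sets are not comparable as amounts of RNA. In bulk liver RNA, fewer cells of a type and less RNA per cell cannot be told apart.

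Over the whole table, saline levels spanned 1.32 to 12.5 (median 4.37) and PN levels 1.38 to 11.8 (median 4.36). The authors restricted the table to rows with a difference of at least 1.5-fold, and the smallest difference was 0.585. A gene without a value is therefore not shown to be unchanged or absent. Of the 1750 named genes 878 (50.2%) were higher with PN and 872 (49.8%) lower, and the median size of a difference was 0.73 (1.65-fold). The 133 chemosensory receptor genes in the table, which liver is not known to express, had a median higher level of 3.26, used here as a background level. Of 13 hepatocyte markers 2 had a value, Cyp7a1 at 8.77 and 10.0 and Ass1 at 5.78 and 6.67 in the saline and PN pools. The defining markers Alb, Ttr and Apoa1 had none, so the tissue label was checked through few genes.

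Tfrc (probe set 17324835), the receptor for transferrin-bound iron, had a level of 6.11 with saline and 7.17 with PN. The PN pool was the higher one, by 1.06 on the log2 scale (2.08-fold). Tfrc was the only one of the 3 genes to differ by at least 2-fold, a size reached by 14.8% of the named genes in either direction and by 7.6% as higher in PN. It ranked 112 among the 878 higher genes. Of the 211 named genes whose mean level lay within 0.5 of that of Tfrc, 17.1% differed by at least as much. A difference of this size was thus a minority case at the brightness of Tfrc, within a table already selected for differences.

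Hjv (probe set 17400592), the BMP co-receptor of hepatocytes and skeletal muscle, had a level of 8.69 with saline and 7.74 with PN. The PN pool was the lower one, with a difference of -0.95 (1.94-fold lower). Its difference was under 2-fold and ranked 164 among the 872 lower genes. With the columns quantile normalized to each other it was 2.06-fold lower, past that line. Of the 64 named genes of similar mean level, 45.3% differed by at least as much, so the size was ordinary for rows of this brightness. None of 13 skeletal muscle markers, among them Acta1, Ckm and Myh4, had a named value.

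Id3 (probe set 17420016), which encodes an inhibitor of helix-loop-helix transcription factors, had a level of 7.17 with saline and 6.56 with PN. The PN pool was the lower one, with a difference of -0.61 (1.52-fold lower). This lay 0.02 on the log2 scale beyond the authors' cutoff and ranked 779 among the 872 lower genes. Of the 175 named genes of similar mean level, 93.7% differed by at least as much. Id3 was among the smallest differences that the table holds.

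**Figure D1:**
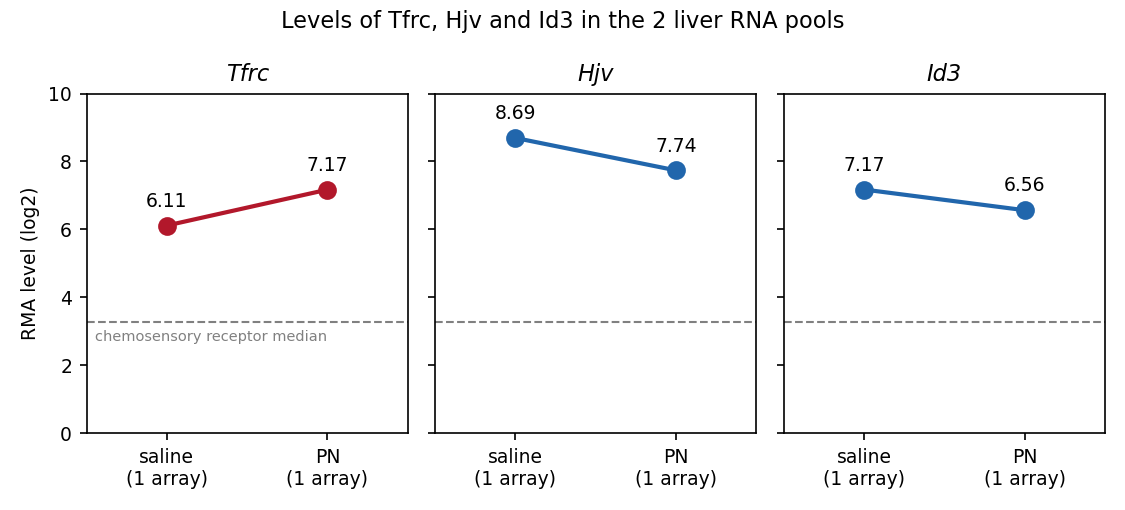
RMA level on the log2 scale (vertical axis) of Tfrc, Hjv and Id3 in both RNA pools (saline and PN), 1 array each, so there are no error bars. Tfrc goes from 6.11 to 7.17, Hjv from 8.69 to 7.74 and Id3 from 7.17 to 6.56, and all 6 levels lie above the dashed line at 3.26, the median higher level of chemosensory receptor genes.

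The opposite directions set Tfrc apart from Hjv by 2.01 on the log2 scale and from Id3 by 1.66. Hjv and Id3 differed from each other by -0.35, Hjv being the further lowered. The lowest of the 6 levels, 6.11 for Tfrc in the saline pool, lay 2.85 above the background level. For comparison, the 95th percentile of the level of chemosensory receptor genes was 5.02, and the 95th percentile of the size of their differences was 1.11. All 3 members had differences smaller than the latter value, though at levels well above those of the receptor genes. Without replicate arrays, the spread of a probe set as bright as Tfrc or Hjv was not measured.

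**Figure D2:**
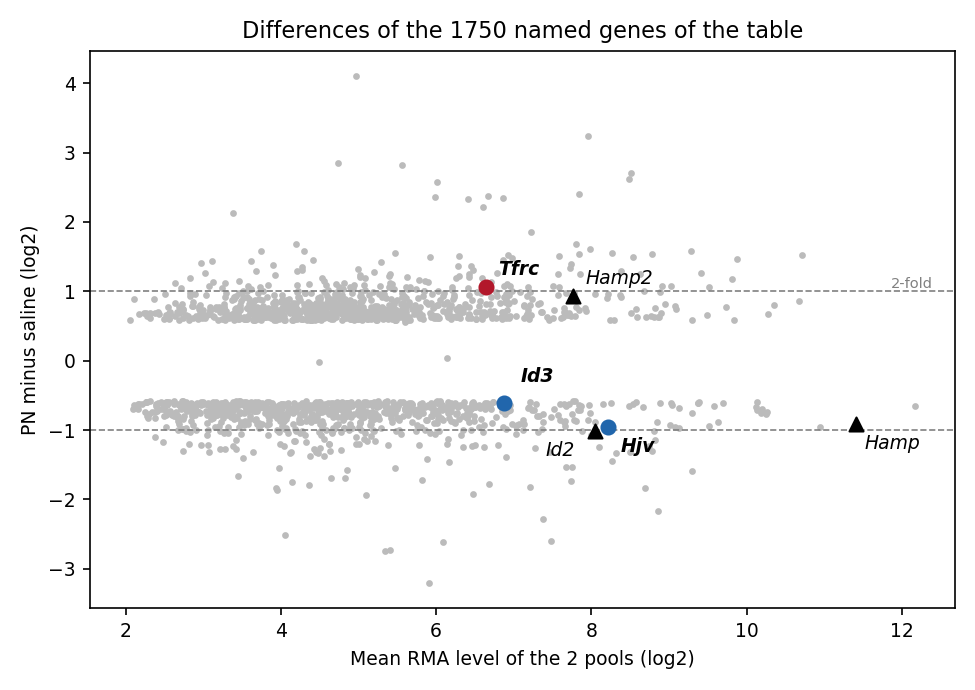
PN minus saline difference (vertical axis, log2) against the mean RMA level of the 2 pools (horizontal axis, log2) for the 1750 named genes, with Tfrc, Hjv and Id3 as coloured circles, Hamp, Hamp2 and Id2 as black triangles and the other genes in grey. The empty band around 0 is the 1.5-fold cutoff of the table, the few points inside it are genes averaged over rows of opposite direction, and Id3 lies at the edge of the band while Tfrc lies just past the dashed 2-fold line.

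The wider system was read from 9 lists of 136 genes for iron uptake, iron storage and export, iron regulatory proteins, BMP and hepcidin sensing, BMP targets, ID proteins and their partners, cytokine input to hepcidin, heme and hypoxia. Of these, 19 had a named value, 10 of them higher and 9 lower with PN. Without the 3 members there were 16, 9 higher and 7 lower. Over all named genes 50.2% were higher, so the split of the 19 was close to that of the table. Their median, 0.60, and that of all named genes, 0.59, carry no information, since with an even split both fall on the first values past the cutoff. Past 2-fold there were 3 higher and 1 lower, against 7.6% higher and 7.2% lower among all named genes.

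Among iron uptake genes, 3 of 17 had a value, each of them higher with PN, as were 50.2% of all named genes, and their median was 0.81. Besides Tfrc these were Steap4 and Cd163. Steap4, a metalloreductase that converts ferric to ferrous iron, had 8.72 with saline and 9.46 with PN (1.67-fold higher). Cd163, the macrophage receptor for haptoglobin-bound haemoglobin, had 5.79 and 6.59 (1.75-fold higher). Tfr2, the second transferrin receptor, and the non-transferrin iron importers Slc39a14 and Slc11a2 had no named value. None of 13 genes of iron storage and export had one, the ferritin heavy chain gene Fth1 and the exporter gene Slc40a1 included. Tfrc was also the only gene with a value among 12 for iron regulatory proteins and their target mRNAs.

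In the list of BMP and hepcidin sensing, 6 of 38 genes had a value, 4 lower and 2 higher, with a median of -0.87. Hamp, which encodes hepcidin, had 11.9 with saline and 11.0 with PN, a difference of -0.91 (1.88-fold lower). Smad9, which encodes a SMAD protein of the BMP branch, had 7.03 and 6.07, a difference of -0.96 (1.94-fold lower). Rgmb, a family member of hemojuvelin and likewise a BMP co-receptor, had 5.83 with saline and a difference of -0.83 (1.77-fold lower). These 3 and Hjv were the lower genes.

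The higher genes of this list were Fst and Hamp2. Fst, which encodes the activin and BMP binding protein follistatin, had 5.61 with saline and 6.41 with PN (1.74-fold higher). Hamp2, a duplicate of Hamp, had 7.30 and 8.23, a difference of 0.93 (1.91-fold higher). The BMP ligand genes Bmp2 and Bmp6, the receptor genes Bmpr1a, Acvr1 and Bmpr2, and Hfe, Neo1 and Tmprss6 had no named value. Other BMP ligand genes, off the list, did have one. Bmp10 had 3.65 with saline and 4.41 with PN, and Bmp3 had 4.16 and 4.90. Both were higher with PN, at levels under 5.02, the 95th percentile of chemosensory receptor genes. Close copies such as Hamp and Hamp2 can share probe sequence, so the share of each in its probe set is uncertain, although their probe sets went in opposite directions.

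Of 18 BMP and SMAD target genes 4 had a value, each of them lower with PN, as were 49.8% of all named genes. Their median was -0.93 (1.91-fold lower), where the cutoff of the table leaves only differences of at least 0.585 in size and the median size over all named genes was 0.73. They were Id3, Id2, Smad9 and Hamp, the main output of the pathway in liver. Id3 is itself a member, and Smad9 and Hamp were also counted in the list of BMP and hepcidin sensing. Id2, a paralog of Id3, had 8.56 with saline and 7.54 with PN, a difference of -1.01 (2.02-fold lower), and was the only gene of the pathway lists that was lower by at least 2-fold at the deposited scale, as 7.2% of the named genes were. Id1, Smad6, Smad7 and Atoh8, which are common readouts of hepatic BMP signalling, had no named value. The BMP lists were drawn up with the direction of Hjv and Id3 known, and 14 of the 18 target genes cannot be read from this table. Id2 responds to many signals besides BMP.

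**Figure D3:**
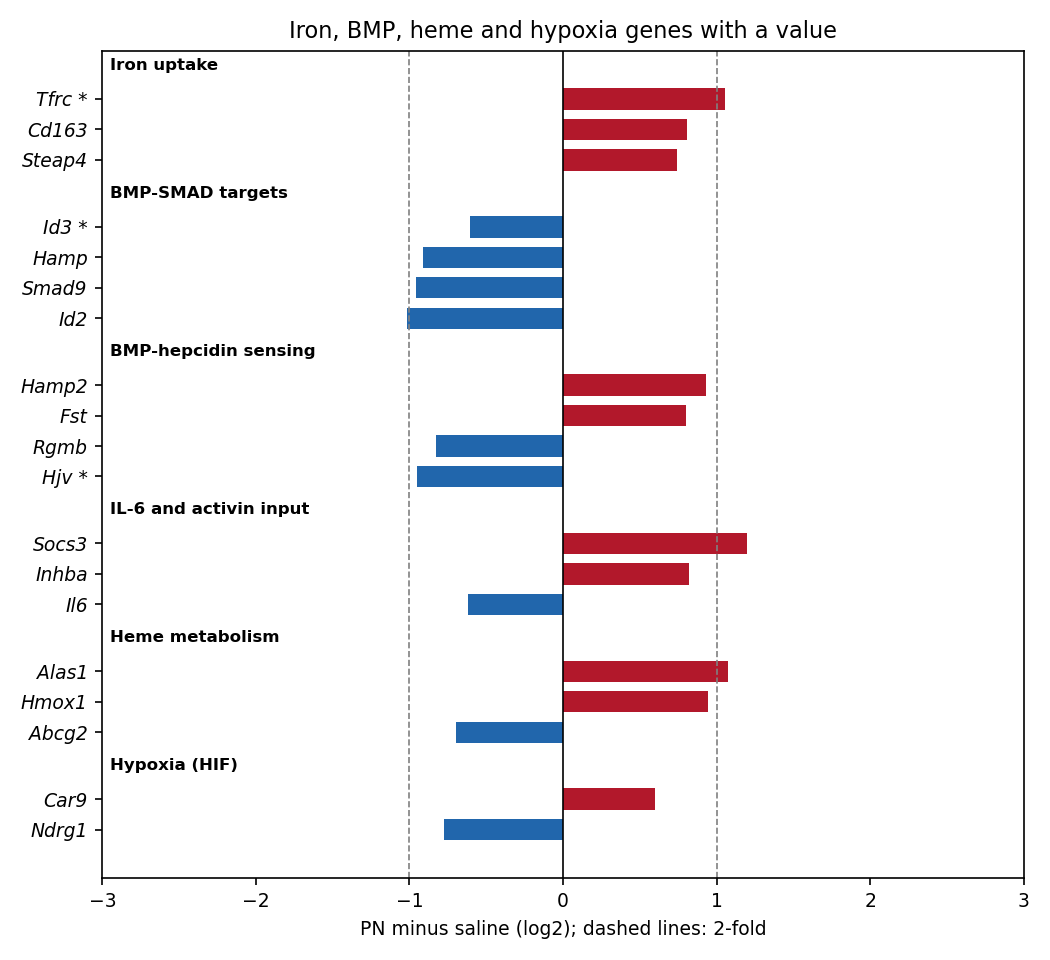
PN minus saline difference on the log2 scale (horizontal axis) of the 19 pathway genes with a named value, grouped by list, each gene shown once and the 3 genes of the report marked with an asterisk. Bars to the right (red) are higher and bars to the left (blue) lower in the PN pool, 1 array each, with dashed lines at 2-fold. The 4 BMP and SMAD targets lie to the left and the 3 iron uptake genes to the right, and the Il6 bar comes from levels under background.

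Promoter sequence was set beside these values because the BMP response of Hamp is known to run through a GC-rich element, GGCGCC, near its start. The 250 bases before an annotated start were taken from RefSeq (GRCm38.p6) for Tfrc, Id3, Hamp and Hamp2, and for Id2 and Smad9, which are not shown. Both strands were searched for GGCGCC, for the STAT-type element TTCNNNGAA and for ACGTG, the core of hypoxia response elements. Hjv is named only. These elements do not overlap one another in the windows shown, and capitals mark every match. Hamp and Hamp2 are shown since this duplicated pair went in opposite directions, and Tfrc and Id3 as the members with an entry.
Tfrc, first of 2 annotated starts, chr16:32608646-32608895, plus strand: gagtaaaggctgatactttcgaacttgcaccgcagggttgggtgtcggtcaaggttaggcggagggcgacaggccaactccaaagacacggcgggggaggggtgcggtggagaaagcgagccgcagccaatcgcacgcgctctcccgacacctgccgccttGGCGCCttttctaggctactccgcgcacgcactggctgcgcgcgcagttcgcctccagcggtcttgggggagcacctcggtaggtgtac
Id3, chr4:136143572-136143821, plus strand: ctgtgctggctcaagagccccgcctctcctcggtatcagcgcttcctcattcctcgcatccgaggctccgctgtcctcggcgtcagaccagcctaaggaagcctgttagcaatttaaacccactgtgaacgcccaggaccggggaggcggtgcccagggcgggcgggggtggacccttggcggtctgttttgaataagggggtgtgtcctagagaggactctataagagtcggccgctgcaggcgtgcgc
Hamp, chr7:30944030-30944279, minus strand: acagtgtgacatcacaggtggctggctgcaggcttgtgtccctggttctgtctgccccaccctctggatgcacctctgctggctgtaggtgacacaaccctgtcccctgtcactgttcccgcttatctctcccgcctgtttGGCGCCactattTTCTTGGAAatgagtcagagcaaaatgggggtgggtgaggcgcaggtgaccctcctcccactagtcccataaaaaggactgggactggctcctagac
Hamp2, chr7:30924182-30924431, minus strand: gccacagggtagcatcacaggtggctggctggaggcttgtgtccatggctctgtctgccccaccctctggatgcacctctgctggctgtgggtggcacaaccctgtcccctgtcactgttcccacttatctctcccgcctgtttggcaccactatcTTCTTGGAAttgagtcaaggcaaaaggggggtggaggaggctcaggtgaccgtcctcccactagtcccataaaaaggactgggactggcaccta

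Hamp held GGCGCC from base -109 to -104 before its start and TTCTTGGAA from -97 to -89. Hamp2 held TTCTTGGAA from -94 to -86 but no GGCGCC. The windows of the pair aligned over 247 bases, of which 227 (91.9%) were identical. Inside the Hamp element the alignment showed 1 substitution, G145A, counted from 1 at the 5′ end of the Hamp window, with the Hamp base first. The lower member of the pair thus held the element and the higher member held it with 1 changed base, which is a description of 2 sequences and 2 arrays.

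Over 32851 promoter windows of this length, 9.59% held GGCGCC, 7.02% TTCNNNGAA and 16.6% ACGTG. The window of the first Tfrc start held GGCGCC from -89 to -84, though Tfrc was higher in the PN pool. The window of its second annotated start held ACGTG but no GGCGCC. The Id3 window held none of the 3 elements. Id2 and Smad9, both lower, each held 1 GGCGCC, at -231 to -226 and at -51 to -46. The element was therefore present before genes of either direction. Of the genes searched, only Tfrc and Hamp2 were higher, and Tfrc held it before its first annotated start alone. Other higher genes of the lists were not searched, so no share by direction can be read.

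Inputs to hepcidin other than BMP were read from few genes. Of 11 genes for interleukin 6 and activin signalling 3 had a value. Socs3, a feedback inhibitor of cytokine signalling that STAT3 induces, had 4.49 with saline and 5.69 with PN (2.29-fold higher). Acute phase genes of liver, which also respond to cytokines and are off the list, went in both directions. Lower ones include Orm2, Orm3 and Saa2, with differences of -2.60, -2.72 and -0.94, and Lcn2, at 7.62 with saline and 6.62 with PN. Higher ones include Saa3 and Apcs, with differences of 1.25 and 0.82. A change in STAT3 signalling was not tested. Inhba, an activin subunit gene, had 5.05 and 5.87 (1.77-fold higher). The activin subunit genes Inhbc and Inhbe, off the list, went in opposite directions. Inhbc had 7.57 and 8.54, a difference of 0.97, and Inhbe had 5.79 and 4.63, a difference of -1.16. Il6 had 2.94 and 2.31, both under the background level of 3.26, so no fold is given.

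Heme genes, which draw on the same iron, had 3 values of 18. Alas1, the rate-limiting enzyme of heme synthesis in liver, had 8.49 with saline and 9.56 with PN (2.11-fold higher). Hmox1, heme oxygenase, which frees iron from heme, had 7.10 and 8.05 (1.92-fold higher). Abcg2, a transporter of porphyrins and many drugs, had 7.86 and 7.17 (1.62-fold lower). The RNA levels for the rate-limiting enzyme of synthesis and for the enzyme of breakdown were thus both higher in the PN pool. The enzymes themselves were not measured.

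Tfrc is also a known target of hypoxia-inducible factors, and of a list of 19 hypoxia genes without it 2 had a value. Car9, a carbonic anhydrase, had 3.98 and 4.58 (1.52-fold higher), and Ndrg1, averaged over 2 rows, had 7.28 and 6.51 (1.71-fold lower). These 2 went in opposite directions, and both Car9 levels lay under 5.02, the 95th percentile of chemosensory receptor genes. Vegfa, Slc2a1, Egln3 and Epo had no named value. The list was not complete. Hypoxia genes off it include Ddit4, Pfkfb3 and P4ha1, higher with PN by 1.13, 0.75 and 0.71, and Eno2, with a difference of -0.69. A part of hypoxia in the higher level of Tfrc was not tested.

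Cell types other than hepatocytes carry these genes too, Tfrc most strongly in erythroid precursors. Of 21 erythroid markers 3 had a value, each of them lower with PN, as were 49.8% of all named genes. Klf1 had a difference of -0.75, Car1 of -0.83 and Tspan33, at 2.01-fold lower, the largest, and their summed signal went from 7.59 to 6.72 on the log2 scale. Gata1 and Slc4a1 had no named value. The part of erythroid cells in the level of Tfrc was not tested.

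Macrophage markers with a value were higher with PN, as were Tfrc and Hmox1, which macrophages also express. Of 18 markers 10 had a value, Cd163 of the iron uptake list among them, and all 10 were higher, against 50.2% of all named genes. They ranged from 0.62 for Clec4f to 2.36 for Marco, with a median of 0.77 beside the median size of 0.73 over all named genes. Their summed signal went from 10.5 with saline to 11.2 with PN. Lymphocyte and NK markers were higher for the 6 of 16 with a value, by a median of 0.66, with a summed signal of 7.17 and 8.01. Neutrophil markers were higher for the 3 of 10 with a value, by a median of 1.03, with a summed signal of 6.35 and 7.34. The part of these cells in the higher level of Tfrc was not tested.

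Endothelial cells are a main source of BMP2 and BMP6 in liver, and the 12 endothelial markers were without a named value. Of 12 stellate and matrix markers Lum alone had one, at 5.12 and 6.05 (1.91-fold higher). No marker list with a value other than the erythroid one went in the direction of Hjv and Id3. The part of erythroid cells in the lower levels of Hjv and Id3 was not tested.

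**Figure D4:**
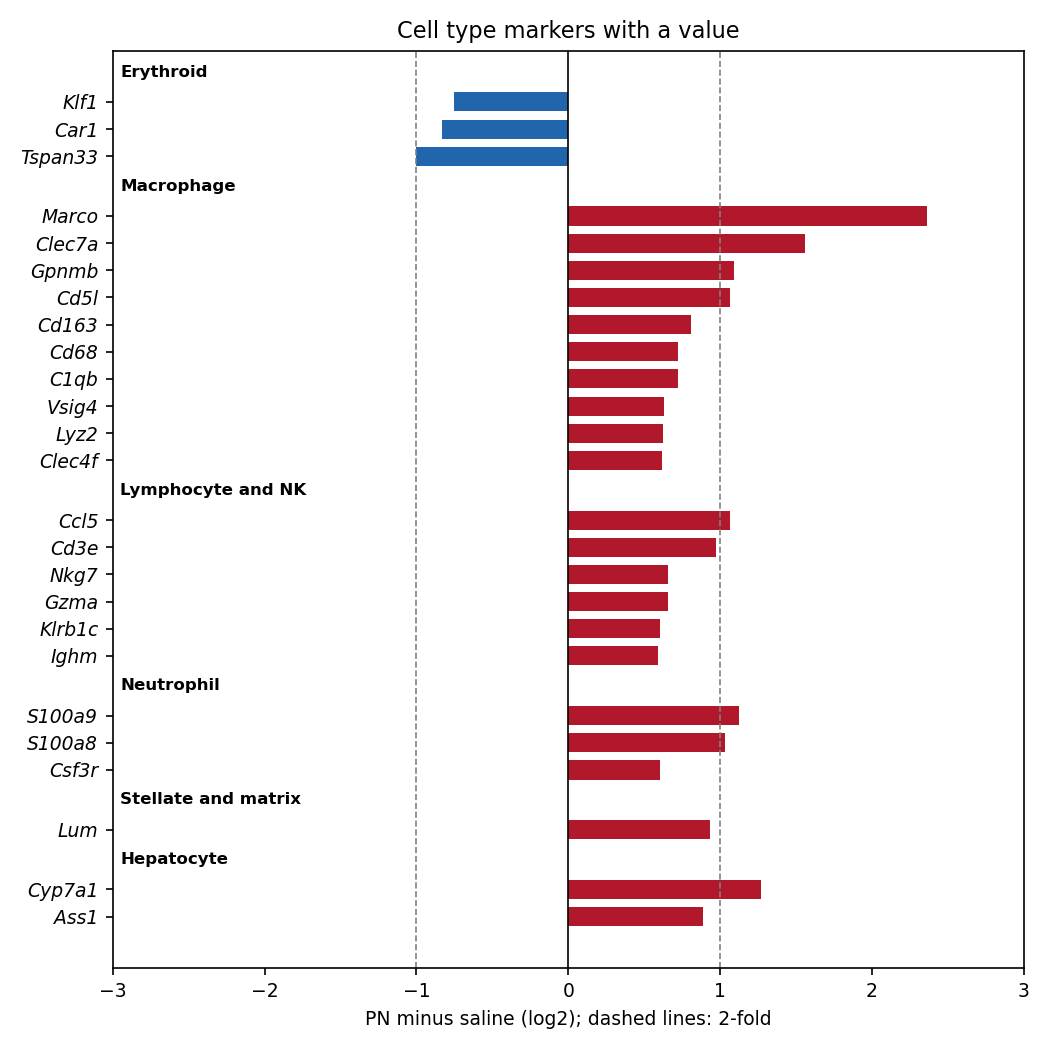
PN minus saline difference on the log2 scale (horizontal axis) of the cell type markers with a named value, grouped by cell type, 1 array per pool, with dashed lines at 2-fold. The 3 erythroid markers lie to the left, lower in the PN pool, and the 10 macrophage, 6 lymphocyte and NK, 3 neutrophil, 1 stellate and 2 hepatocyte markers lie to the right.

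The genes most like each member were taken as the 3 with the smallest distance over the 2 levels, a likeness over 2 arrays that says nothing of shared control. For Tfrc these were Vcam1, an adhesion molecule gene, at a distance of 0.04 on the log2 scale with levels of 6.07 and 7.15, then Ddit4, a stress-induced inhibitor of mTORC1 signalling, at 0.11, and Srsf3, a splicing factor gene, at 0.12. For Hjv the nearest was Id2, at a distance of 0.24, followed by Nr0b2, the gene of the nuclear receptor SHP, at 0.25 with levels of 8.49 and 7.60, and Mad2l2 at 0.25. For Id3 they were Pcolce, a procollagen processing enhancer gene, at 0.03 with levels of 7.14 and 6.55, Rab4a, a small GTPase gene, at 0.05, and Ppt2, a lysosomal thioesterase gene, at 0.06. The distances were larger around Hjv, where the table holds fewer genes of similar level, 64 against 211 for Tfrc and 175 for Id3.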

How the data were processed

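Liver RNA of 2 pools was labelled with biotin and hybridised to 1 array each. The deposited values are log2 levels, made by the authors with RMA in Affymetrix Expression Console 1.4.0.38 per the submitters' processing notes. Not given in the sources used here are the genome build, probe annotation and which arrays entered the normalization. The rows had been kept by a 1.5-fold cutoff, per the design text. Of 5082 rows, 1779 carried 1 gene symbol, 161 several and 3142 none, and 1766 of the first had an Entrez identifier in RefSeq (GRCm38.p6), through which symbols were updated. Rows of a gene were averaged, which gave the 1750 genes called named genes in the text, and rows with several symbols named no gene. Differences, folds, counts and promoter matches were computed in Python 3.11.15 with pandas 2.3.3, NumPy 2.4.6 and matplotlib 3.10.9, and the scripts were tested on simulated data. No pseudocount, filter or test was used, and the number of arrays limits the precision. Summed signals add the linear levels of a list's genes with a value, given as log2. Promoter windows of Hamp and Hamp2 were aligned globally. The members, lists and rules were chosen with earlier results of these data known. The genes described singly are the 3 members, all pathway genes with a value and the 3 genes nearest to each member. The nearest genes were chosen without predicted, RIKEN, small RNA and chemosensory receptor genes. Genes given as off a list were added after their values were seen and entered no count of the lists. Alternatives concerned scaling, background level, choice of rows and the cutoff.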

Additional observations from a re-analysis of the deposited data

How the results depend on the processing

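All 15 values of Tfrc, Hjv and Id3 under the 5 alternatives kept their direction and stayed within 1.5-fold of the reported difference. The alternatives were centring each array on the median of its rows or of its unnamed rows, quantile normalization of the columns, raising dim levels to the background level and using the brightest row. Most of these could move little. Each gene has 1 row and levels above background, so the last 2 returned the reported values by construction. Centring shifted all genes alike, by array medians that differed by only -0.02. Quantile normalization alone could change 1 gene relative to another. Tfrc ranged from 1.06 to 1.08 on the log2 scale, Hjv from -1.04 to -0.93 and Id3 from -0.62 to -0.59. Hjv thus passed 2-fold under quantile normalization only, at 2.06-fold. With a 2-fold cutoff the pathway genes with a value dropped from 19 to 4, of which 3 were higher and 1 lower, by construction of the cutoff. Under the other alternatives the counts lay within 1.5 times the reported ones. Leaving out genes under the background level and genes shared with the macrophage markers were alternatives chosen after seeing the data. No paired analysis was possible because each group has 1 array and the result comes from no test. For the same reason no replicate could be left out. The 2 arrays and the 1.5-fold cutoff limit all statements to genes that differed between these pools.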

Other observations

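Rows that name several genes entered no count, and 2 of them bear on iron and heme. They are named after their values were seen. A row shared by the ferritin light chain gene Ftl1 and its pseudogene Ftl1-ps2 had 4.52 with saline and 3.52 with PN. Both levels lay under 5.02, the 95th percentile of chemosensory receptor genes. A separate row that names Ftl1-ps2 alone went the other way, from 4.04 with saline to 5.13 with PN, a difference of 1.09. A row shared by Alas2, the erythroid enzyme of heme synthesis, and Apex2 had 7.60 and 6.81, a difference of -0.79. Which of its genes each shared row measured cannot be told apart.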
